A study of Mus musculus with 9 samples.

Results

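The comparison set the higher against the lower dose of fine particulate matter (PM2.5) in the mouse hippocampus. Its members were the mouse miRNAs that the scanner software called detected on all 3 arrays of the 5 mg/kg group or on all 3 arrays of the 1 mg/kg group. They numbered 423 of the 1247 mouse miRNAs on the array (33.9%). Of these, 405 were detected on all 3 arrays of both dose groups, 13 reached all 3 arrays of the 1 mg/kg group only and 5 reached all 3 arrays of the 5 mg/kg group only. PM2.5 had been collected on filters in a northern Chinese city in winter. Male C57BL/6 mice, about 8 weeks old, carried no transgene and received the particles in saline into the throat (oropharyngeal aspiration) every other day for 4 weeks, at 1 or 5 mg per kg of body weight, and a control group received saline. Each group had 3 hippocampal RNA samples, labelled with Cy3 and hybridised to 1 array each of a 1-colour Agilent mouse miRNA design.

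miRNAs are short RNAs cut from longer hairpin transcripts. Each guides a silencing complex to messenger RNAs, mainly through bases 2 to 8, the seed. Many are restricted to a cell type, so the miRNA profile of a piece of brain also carries a record of its cell types: miR-124, miR-9 and miR-128 for neurons, miR-219 and miR-338 for myelin-forming oligodendrocytes, miR-204 and miR-211 for the choroid plexus that lines parts of the ventricles next to the hippocampus, and miR-34b and miR-34c for ciliated cells such as the ependyma.

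By name, 347 of the 423 members matched a mature miRNA of RefSeq (GRCm38.p6), from which the sequences below were taken, 5′ to 3′, with the seed in capitals. The first set holds miR-5119, the single miRNA at an adjusted p under 0.05, guide strands of choroid plexus and ciliated-cell miRNAs that were lower at 5 mg/kg, miR-34a-5p for its seed, and 2 miRNAs that lie within the serotonin receptor gene Htr2c.
miR-5119: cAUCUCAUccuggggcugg
miR-204-5p: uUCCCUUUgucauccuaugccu
miR-211-5p: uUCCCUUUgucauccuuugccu
miR-34b-5p: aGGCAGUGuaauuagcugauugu
miR-34a-5p: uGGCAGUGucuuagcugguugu
miR-448-3p: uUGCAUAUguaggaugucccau
miR-1298-5p: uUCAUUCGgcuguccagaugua
miR-5119 lies at chr11:98262638-98262656 on the plus strand, within the span of Cdk12, and shared its seed with no other matched member. miR-204-5p (chr19:22750610-22750631, within Trpm3) and miR-211-5p (chr7:64205831-64205852, within Trpm1) have the same seed. miR-34b-5p (chr9:51103610-51103632) shares its seed with miR-34a-5p (chr4:150068473-150068494), its relative from another locus. miR-448-3p (chrX:147158281-147158302) and miR-1298-5p (chrX:147064918-147064939) have different seeds and a common host gene.

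The second set holds the 6 miRNAs that were higher at 5 mg/kg at an unadjusted p under 0.05, and miR-574-5p, which the study followed up.
miR-708-5p: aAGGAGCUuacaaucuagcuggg
miR-153-5p: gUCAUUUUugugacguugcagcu
miR-186-3p: gCCCUAAGgugaauuuuuuggg
miR-451a: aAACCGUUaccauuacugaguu
miR-9-5p: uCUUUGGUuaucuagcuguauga
miR-411-3p: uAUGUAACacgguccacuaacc
miR-574-5p: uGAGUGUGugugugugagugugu
No 2 of these 7 have the same seed. The gene of miR-708-5p (chr7:96249450-96249472) lies within Tenm4, that of miR-153-5p (chr12:117250821-117250843) within Ptprn2 and that of miR-186-3p (chr3:157544324-157544345) within Zranb2. miR-9-5p is encoded at 3 loci, on chromosomes 3, 7 and 13. miR-411-3p (chr12:109710225-109710246) belongs to the imprinted Dlk1-Dio3 cluster of chromosome 12.

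Levels are given as log2 of the signal divided by the 75th percentile of the array (scaled log2 signal), so that 0 is the level of that percentile and 1 unit is a doubling. Differences are 5 minus 1 mg/kg on this log2 scale, and a negative value is a lower level at the higher dose. The 6 PM2.5 arrays had 419 to 436 miRNAs detected and a 75th percentile of 507 to 614 intensity units, and no spot was saturated. Array positions were not balanced over the doses. Replicate 1 of the 1 mg/kg group lay in row 1 of the first slide with the 3 control arrays, 1 mg/kg replicates 2 and 3 and 5 mg/kg replicates 1 and 2 filled row 2 of that slide, and 5 mg/kg replicate 3 was alone on the second slide, which was scanned at another time. For the neuron list, 5 of 7 miRNAs on the array were members, and miR-124-3p stood at 5.55 ± 0.09 (SD, n = 3) in the 1 mg/kg and 5.65 ± 0.14 in the 5 mg/kg group. None of the 9 Hox-linked miRNAs on the array was a member, while 3 of 17 miRNAs of muscle and other tissues and 3 of 16 of epithelium and sensory cells were.

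Few miRNAs passed an unadjusted p of 0.05 between the doses, and 1 of them stood apart from the others. In the limma fit over all 9 arrays, 16 of the 423 members had an unadjusted p under 0.05 (3.78%), 6 of them higher at 5 mg/kg (1.42%) and 10 lower (2.36%). That share is below the 5% that this threshold passes on average when no miRNA differs. After Benjamini-Hochberg adjustment 1 member remained (0.236%), miR-5119, and the next lowest adjusted p was 0.995. The median difference over all members was 0.04, 287 members (67.8%) lay above 0, and 379 (89.6%) differed by less than 0.2. All 14 members with a difference over 0.5 in size were lower at 5 mg/kg. The largest difference in the other direction was 0.40.

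The count of 16 depended on single arrays. It was 9 without 1 mg/kg replicate 2, 8 without 1 mg/kg replicate 3, 9 without 5 mg/kg replicate 1 and 35 without 5 mg/kg replicate 3. Of the 16, miR-5119, miR-34b-5p and miR-708-5p kept an unadjusted p under 0.05 whichever array was left out. The split of 6 higher and 10 lower was 4 and 11 when the percentile was taken over all miRNAs, 9 and 9 after quantile normalization and 2 and 11 without scaling. It turned to 17 and 3 in a fit without limma's moderation, where each miRNA has its own spread. Those 3 included miR-5119 and miR-34b-5p, so most lower calls of the choroid plexus and ciliated-cell miRNAs below were lost there. Among the 405 miRNAs detected on all 6 PM2.5 arrays the split was 6 and 7. With the replicate number as a block, a pairing that is an assumption, the count was 15 over the 9 arrays and 16 over the 6 PM2.5 arrays.

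**Figure D1:**
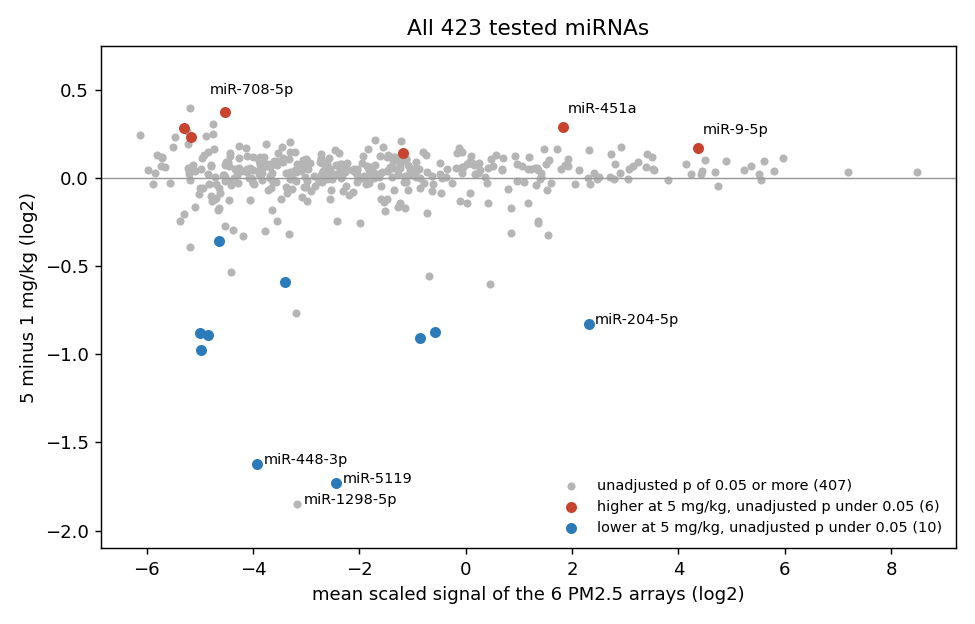
Difference between the doses (5 minus 1 mg/kg, log2, vertical axis) against the mean scaled log2 signal of the 6 PM2.5 arrays (horizontal axis) for the 423 members, each a point. Red points are the 6 miRNAs higher and blue points the 10 miRNAs lower at 5 mg/kg at an unadjusted p under 0.05; most points lie within 0.2 of 0, and every difference over 0.5 in size is negative.

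miR-5119 fell 3.32-fold from the lower to the higher dose. This miRNA was annotated late, and no role in the brain is assumed for it here. Its scaled log2 signals were -1.21, -1.83 and -1.68 in 1 mg/kg replicates 1 to 3 and -3.39, -3.24 and -3.29 in 5 mg/kg replicates 1 to 3. Every array of the 1 mg/kg group was above every array of the 5 mg/kg group by more than 1 unit. The control arrays, at -2.75, -3.10 and -2.93, lay between the dose groups and nearer to the higher dose. The difference was -1.73 ± 0.16 (SE; 95% interval -2.09 to -1.37), with an adjusted p of 0.00131 in limma, and the two-sided exact permutation test of 3 against 3 arrays gave p = 0.1, the smallest it can give.

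Probes and slide rows gave the same sign, which is not separate support, since the probes pair with overlapping stretches and the rows split the same arrays. In unscaled intensity units miR-5119 read 219, 168 and 191 in the 1 mg/kg group and 52.9, 58.5 and 62.9 in the 5 mg/kg group, and it was detected on all 9 arrays. Its 3 probes, of 12, 13 and 14 bases, pair with bases 8 to 19, 7 to 19 and 6 to 19 of the mature miRNA printed above, and the stretch that each pairs with occurred in no other mature sequence of the RefSeq table. The probes gave differences of -1.47, -1.72 and -1.88, and for each of them the dose groups did not overlap. Within the 4 arrays of row 2 the difference was -1.56, and in the 2 arrays outside row 2 it was -2.08. Both had to be negative, because the dose groups did not overlap. With the replicate number as a block the adjusted p was 0.00525 over the 9 arrays and 0.173 over the 6 PM2.5 arrays, a fit with few degrees of freedom left. The deposited log2 table gave -2.19 with an adjusted p of 0.0529, and the normexp background correction, which adds an offset of 50, a smaller difference of -0.63.

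**Figure D2:**
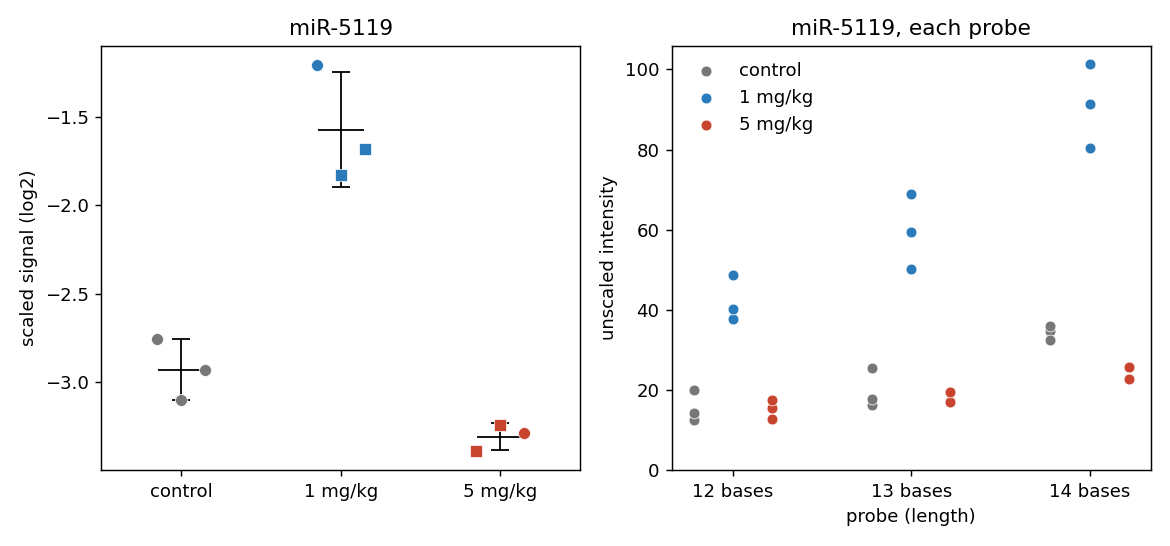
miR-5119 on all 9 arrays. Left, scaled log2 signal by group, with squares for the arrays of row 2 of the first slide, circles for the others, and the mean ± SD of each group in black; right, unscaled intensity of the probes of 12, 13 and 14 bases. The 3 arrays of the 1 mg/kg group lie above all others for each probe.

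Guide strands of the choroid plexus were lower at the higher dose. The list of miR-204, miR-211 and miR-448 had 5 members, of which 4 were lower at an unadjusted p under 0.05 and none was higher, beside 2.36% of all members lower, with a median difference of -0.83 beside 0.04 over all members. Of the 4, miR-204-3p and miR-448-3p were not detected on all 6 PM2.5 arrays. They passed the filter through 1 dose group only, so their calls are not independent of that filter. miR-204-5p, by far the brightest of the 5, read 2.37, 2.73 and 3.08 at 1 mg/kg and 1.78, 2.43 and 1.47 at 5 mg/kg. The dose groups overlapped, since 5 mg/kg replicate 2 was above 1 mg/kg replicate 1. The difference was -0.83 ± 0.28 (SE), a level 1.78-fold higher at 1 mg/kg, with an unadjusted p of 0.0177 in limma and 0.2 in the exact permutation test. miR-211-5p, with the same seed, had a smaller difference of -0.59 (unadjusted p = 0.0250, limma), and miR-204-3p, the other strand of the miR-204 hairpin, one of -0.89 (unadjusted p = 0.0364, limma). Without 5 mg/kg replicate 3 the differences of miR-204-5p, miR-211-5p and miR-204-3p were -0.62, -0.38 and -0.58, without 1 mg/kg replicate 3 they were -0.65, -0.47 and -0.67, and none of these passed the threshold. miR-204-5p also missed it without 5 mg/kg replicate 1 (-0.77), miR-211-5p without 1 mg/kg replicate 2 (-0.59), and miR-204-3p without 1 mg/kg replicate 2 (-0.88), 5 mg/kg replicate 1 (-0.87) or control replicate 3 (-0.89). miR-211-3p, the other strand of miR-211, stood at -3.12 ± 0.17 and -3.04 ± 0.02 (SD, n = 3).

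miRNAs within Htr2c, the gene of a serotonin receptor that the choroid plexus expresses strongly, were dim and varied widely between arrays. miR-448-3p read -3.31, -3.30 and -2.71 at 1 mg/kg and -4.21, -3.71 and -6.26 at 5 mg/kg, where the last value is the floor of that array because the miRNA was not detected on it. The groups did not overlap, and the difference was -1.62 ± 0.68 (SE), with an unadjusted p of 0.0430. With the replicate number as a block the p was 0.0540. The difference was -0.86 without 5 mg/kg replicate 3 and ran to -2.13 over the arrays left out, and it missed the threshold without control replicate 3, 5 mg/kg replicate 3 or any 1 array of the lower dose. miR-1298-5p, at -2.73, -2.31 and -1.68 against -3.58, -2.74 and -5.95, did not overlap either, and its difference of -1.85, the largest of all members, had an unadjusted p of 0.0522. It ran from -2.53 without 5 mg/kg replicate 2 to -0.92 without 5 mg/kg replicate 3, and its sign turned to 0.068 with the total signal that the scanner software gives per miRNA. All 4 members within Htr2c were below 0, with a median difference of -1.08. In row 2 alone that median was -0.47, and 2 of the 4 were above 0 there.

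The ciliated-cell miRNAs moved with them. All 4 detected strands of miR-34b and miR-34c, of 9 miRNAs of the ciliated-cell list on the array, were lower at 5 mg/kg at an unadjusted p under 0.05. Of all members 2.36% were. Of the 4, miR-34c-3p and miR-34b-3p were not detected on all 6 PM2.5 arrays. They passed the filter through 1 dose group only, so their calls are not independent of that filter. Differences of the 4 strands ran from -0.97 to -0.87. miR-34b-5p read -0.44, -0.13 and 0.16 at 1 mg/kg and -1.29, -0.40 and -1.34 at 5 mg/kg, with 5 mg/kg replicate 2 again within the range of the lower dose. Its difference of -0.87 ± 0.28 (SE) had an unadjusted p of 0.0131 in limma and 0.2 in the exact permutation test. miR-34c-5p differed by -0.91 (unadjusted p = 0.0241, limma), and the dim strands miR-34c-3p and miR-34b-3p by -0.97 and -0.88. These 3 strands each missed the threshold without 1 mg/kg replicate 2 or 3 or 5 mg/kg replicate 1 or 3, with differences of -0.94 to -0.69, while miR-34b-5p passed it whichever array was left out. miR-34b-3p was detected on all 3 arrays of the 1 mg/kg group and on 1 array of the 5 mg/kg group. The related miR-34a-5p, which shares the seed of miR-34b-5p but comes from another locus and is widely expressed, read 0.63, 0.88 and 1.52 against 0.08, 0.07 and 1.94 (unadjusted p = 0.583, limma).

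The 12 members of these 3 lists included 10 of the 14 members with a difference over 0.5 in size. The other 4 were miR-5119, miR-5110, miR-219-5p and miR-219-2-3p. Of the 10, miR-448-3p, miR-764-5p, miR-204-3p, miR-34b-3p and miR-34c-3p passed the filter through 1 dose group only. The miRNAs of these lists also varied among the control mice. Against the mean of the 9 arrays, the choroid plexus list stood at -0.61, 0.13 and -0.14 in the controls, at 0.28, 0.45 and 0.75 at 1 mg/kg and at -0.20, 0.24 and -0.88 at 5 mg/kg. The ciliated-cell list stood at -0.67, 0.13 and -0.28, at 0.18, 0.62 and 0.96, and at -0.56, 0.34 and -0.74. Both were high on all 3 arrays of the 1 mg/kg group and lowest on control replicate 1 and 5 mg/kg replicate 3. The samples were pieces of tissue, so that fewer cells of a type and less of its RNA per cell cannot be told apart, and how much choroid plexus or ventricle wall each sample held was not measured. Both lists had a negative median in the 4 arrays of row 2 (-0.80 and -0.90) and in the 2 arrays outside it (-0.90 and -0.91). These sets split the same 6 arrays from which the differences were taken, so this is not separate support. With the replicate number as a block over the 6 PM2.5 arrays, miR-204-3p (unadjusted p = 0.0739, limma), miR-211-5p (unadjusted p = 0.0602, limma), miR-34c-3p (unadjusted p = 0.0506, limma) and miR-448-3p (unadjusted p = 0.0717, limma) missed the threshold.

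**Figure D3:**
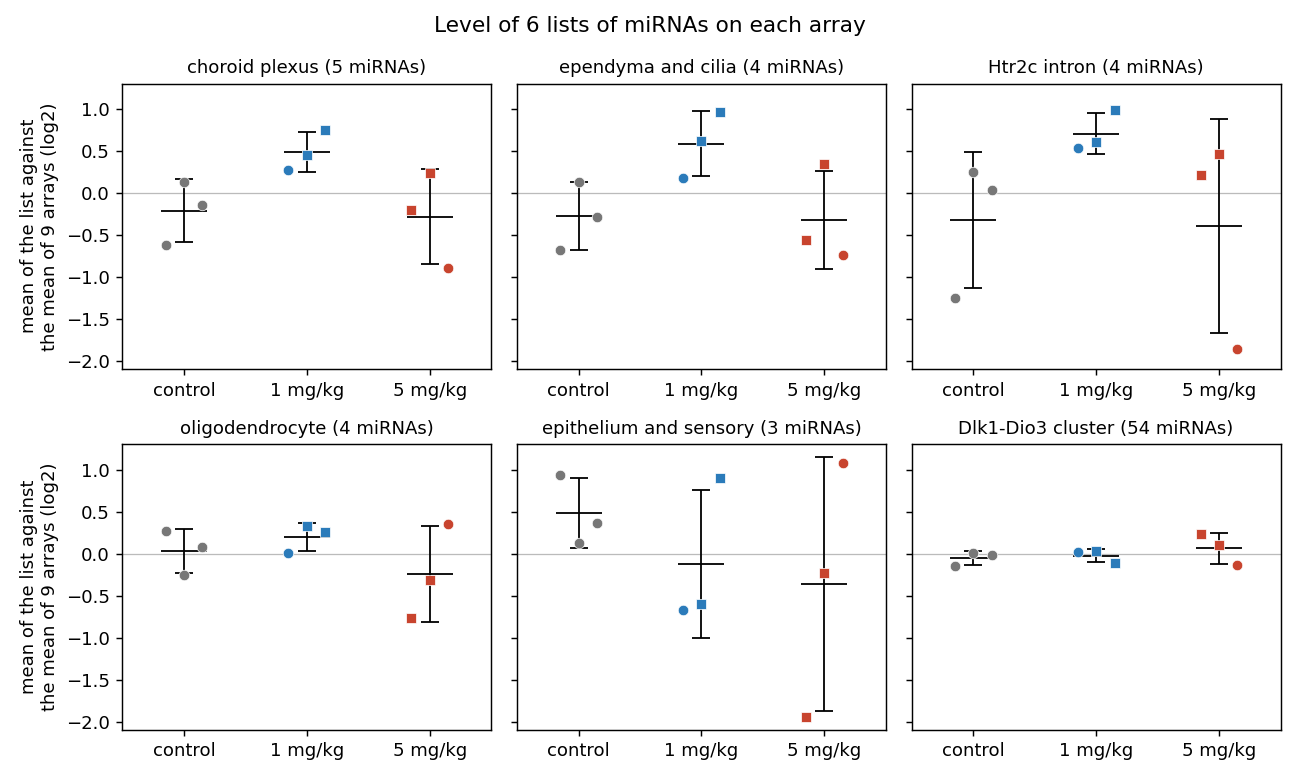
Mean scaled log2 signal of 6 lists of miRNAs on each array, against the mean of the 9 arrays (vertical axis), by group; squares are the arrays of row 2 of the first slide, circles the others, and black marks the mean ± SD of the group. The choroid plexus, ciliated-cell and Htr2c lists are high on the 3 arrays of the 1 mg/kg group, while in the oligodendrocyte, epithelial and Dlk1-Dio3 lists the array of 5 mg/kg outside row 2 lies apart from the 2 arrays of that dose in row 2.

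The 6 miRNAs that were higher at 5 mg/kg differed by small amounts, from 0.14 to 0.37, or 1.11- to 1.30-fold. In each of them the dose groups did not overlap, for which the two-sided exact permutation test of 3 against 3 arrays gives 0.1, its smallest p. miR-9-5p, a miRNA of neural progenitors and neurons, read 4.23, 4.24 and 4.35 at 1 mg/kg and 4.45, 4.45 and 4.43 at 5 mg/kg. Its difference was 0.17 ± 0.07 (SE), with an unadjusted p of 0.0294 and, with the replicate number as a block over the 6 PM2.5 arrays, a p of 0.0630 in limma. It missed an unadjusted p of 0.05 without 1 mg/kg replicate 1 (0.15) or 2 (0.15) and without 5 mg/kg replicate 1 (0.17) or 2 (0.17). Its control values of 4.23, 4.34 and 4.34 lay within the range of the lower dose.

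miR-451a, which is made in red blood cells without Dicer, read 1.67, 1.79 and 1.56 against 2.01, 1.90 and 1.98. The difference was 0.29 ± 0.10 (SE; unadjusted p = 0.0210, limma), and both of its probes separated the groups. It missed the threshold without 1 mg/kg replicate 3 (0.23) and without 5 mg/kg replicate 1 (0.27). The other member of the red cell list, miR-144-3p, is encoded beside it on chromosome 11 and read -4.79, -4.63 and -5.27 against -4.27, -4.57 and -4.94 (unadjusted p = 0.295, limma). Its sign turned to -1.04 with the total signal that the scanner software gives per miRNA.

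miR-411-3p of the Dlk1-Dio3 cluster read -1.27, -1.22 and -1.27 against -1.05, -1.15 and -1.12, a difference of 0.14 ± 0.06 (SE; unadjusted p = 0.0383, limma), and with the replicate number as a block the p was 0.0670. It missed the threshold whichever array was left out, with differences of 0.12 to 0.16. The other 3, miR-708-5p, miR-153-5p and miR-186-3p, were near the detection limit. miR-708-5p had the lowest p of the 6, 0.00847, and read -4.73, -4.66 and -4.72 against -4.20, -4.21 and -4.58. Of its 3 probes with signals above 0, 1 separated the groups. For miR-186-3p, the brightest probe differed by 0.01, and the groups separated in a probe with intensities of 0.48 to 3.68. The differences of miR-708-5p, miR-153-5p and miR-186-3p missed an unadjusted p of 0.05 with the total signal per miRNA, with normexp and in the deposited log2 table. miR-153-5p also missed it without 1 mg/kg replicate 3 (0.21) or 5 mg/kg replicate 1 (0.23), and miR-186-3p without 1 mg/kg replicate 2 (0.20) or 5 mg/kg replicate 3 (0.16).

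Among those lower, miR-199b-5p was the remaining one whose groups did not overlap, at -4.57, -4.35 and -4.47 against -5.12, -4.64 and -4.69. Both of its probes separated the groups, and the difference was -0.36 ± 0.14 (SE; unadjusted p = 0.0343, limma). It missed the threshold without 1 mg/kg replicate 2 (-0.30), 1 mg/kg replicate 3 (-0.36) or 5 mg/kg replicate 1 (-0.21). Over all members, the 3 arrays of one dose lay clear of the 3 of the other for 31 (7.33%), 25 of them higher at 5 mg/kg (5.91%) and 6 lower (1.42%). The 25 had a median difference of 0.14, and 6 of them reached an unadjusted p under 0.05. Of the 6 lower, 3 did.

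**Figure D4:**
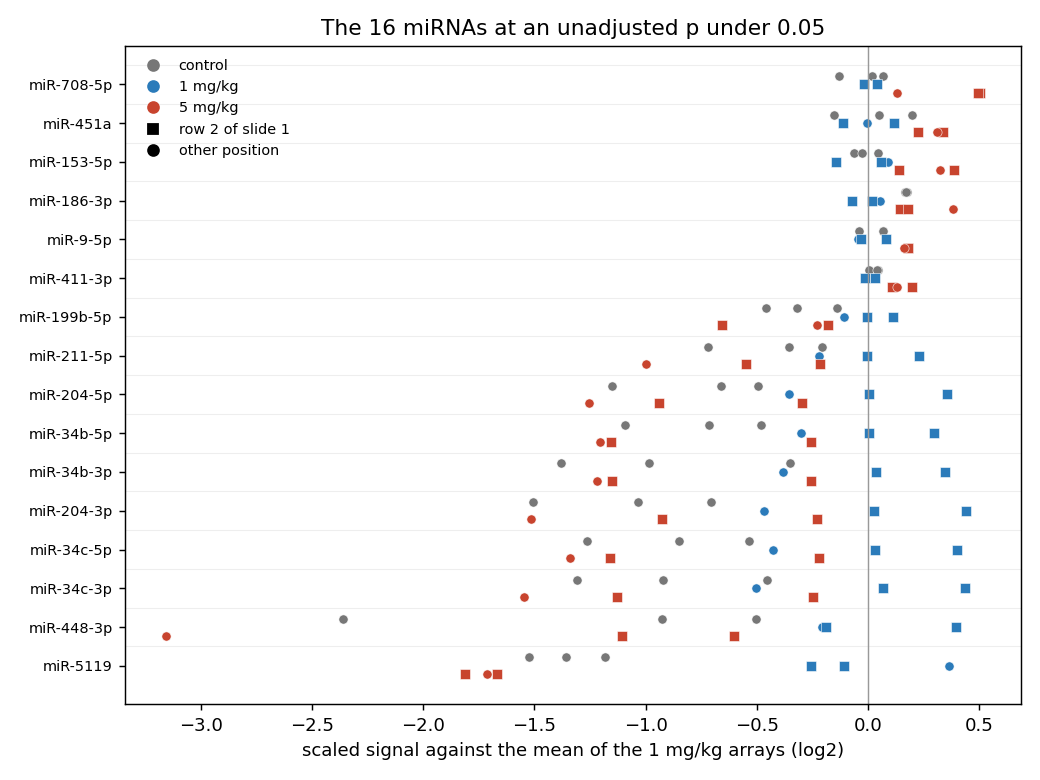
The 16 miRNAs at an unadjusted p under 0.05, ordered by the difference between the doses. The horizontal axis is the scaled log2 signal against the mean of the 1 mg/kg arrays; each row holds the 3 control (grey), 3 1 mg/kg (blue) and 3 5 mg/kg (red) arrays, with squares for row 2 of the first slide. The red points of miR-5119 lie together near -1.7, while those of the choroid plexus and ciliated-cell miRNAs spread widely and, except for miR-448-3p, reach those of the lower dose.

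A set of 4 arrays allowed the doses to be compared within a single slide row. In row 2 of the first slide, with the spread taken from a fit over the 9 arrays that has the slide row as a block, 43 members had an unadjusted p under 0.05 (10.2%), 21 higher (4.96%) and 22 lower (5.20%) at 5 mg/kg, and 1, miR-5119, an adjusted p under 0.05 (0.236%). In that fit 1 mg/kg replicate 1 and 5 mg/kg replicate 3 are fitted exactly and add nothing to the spread. The 2 arrays of each dose did not overlap for 234 members (55.3%), 165 higher (39.0%) and 69 lower (16.3%). Of the 16 miRNAs of the comparison over 6 arrays, 11 (68.8%) were among the 43 (25.6% of these). The 4 arrays of row 2 are among those 6 arrays, so an overlap is built in and is not separate support. The count of 43 was 6 without 5 mg/kg replicate 1, 17 without 1 mg/kg replicate 3, 25 without control replicate 3 and 72 without control replicate 1.

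Most of what differed in row 2 had the opposite sign in the 2 arrays outside it, 5 mg/kg replicate 3 and 1 mg/kg replicate 1, which share no array with row 2. The signs were the same for 121 of the 423 members (28.6%). Across the members, which are not independent replicates, the differences in the 2 sets of arrays had a Spearman correlation of -0.56 and a Pearson correlation of -0.17. Of the 43 miRNAs called in row 2, 31 had the opposite sign in the other arrays, 18 of those higher and 13 of those lower. Of the 9 that were lower in both, 8 were miR-5119, miR-199b-5p and strands of miR-204, miR-211, miR-34b and miR-34c; the ninth was miR-92a-3p, at -0.36 and -0.04. The 3 that were higher in both were miR-708-5p, miR-153-5p and miR-186-3p. All 16 miRNAs called over the 6 arrays had the same sign in both sets of arrays. Those 6 arrays are the 2 sets together, so a call over them favours a shared sign, and this is not separate support. Apart from miR-92a-3p, the miRNAs lower or higher in both repeat the calls over the 6 arrays.

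The oligodendrocyte miRNAs showed this turn of sign. All 4 members of the miR-219 and miR-338 list were lower at 5 mg/kg in row 2 at an unadjusted p under 0.05, beside 5.20% of all members, with a median of -0.87, and all 4 were higher at 5 mg/kg in the other arrays, with a median of 0.34. miR-219-5p, which promotes oligodendrocyte maturation, read 0.68, 0.94 and 0.67 at 1 mg/kg and -0.41, 0.01 and 0.87 at 5 mg/kg. The 2 arrays of the higher dose in row 2 were the lowest of the 6, and the array on the second slide was within the range of the lower dose. Over the 6 arrays its difference was -0.60 ± 0.31 (SE; unadjusted p = 0.0880, limma). miR-338-3p showed the same turn of sign, with 1.52, 1.86 and 1.74 against 0.86, 1.29 and 2.01 (unadjusted p = 0.267, limma). Its array on the second slide lay above every array of the lower dose.

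The largest turns of sign were in the miR-200 family, which marks epithelia and sensory neurons. Its members miR-200a-3p, miR-200b-3p and miR-429-3p differed by a median of -1.22 in row 2 and 1.77 in the other arrays. miR-200b-3p read -5.02, -4.90 and -3.27 at 1 mg/kg and -6.27, -4.61 and -3.12 at 5 mg/kg, a range over which the doses overlapped fully, with 1 array at its floor, and its difference over 6 arrays was -0.27 (95% interval -2.02 to 1.48). miR-133a-3p, miR-133b-3p and miR-1a-3p, known from muscle, had a median of -0.65 in row 2 and 0.43 outside it. miR-34a-5p, at -1.12 and 1.31, belonged to the same pattern, unlike miR-34b-5p and miR-34c-5p.

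The imprinted Dlk1-Dio3 cluster, whose miRNAs are expressed from the maternal chromosome and abundantly in brain, turned in the other direction. In row 2 all 54 of its members were higher at 5 mg/kg, with a median of 0.20 and 7 of them at an unadjusted p under 0.05, beside 266 of all 423 members above 0 and 10.2% called there, and outside row 2 44 were lower, with a median of -0.13. Over the 6 arrays 53 of the 54 lay above 0 beside 67.8% of all members, with a median of 0.09 beside 0.04, and 1, miR-411-3p, had an unadjusted p under 0.05. miR-127-3p, one of its 3 brightest members, read 2.89, 2.81 and 2.60 against 2.96, 2.91 and 2.69. miR-667-3p, with a difference of 0.52 in row 2 and -0.24 outside it, was among the 5 with the largest positive difference in row 2. The others were miR-3092-3p, miR-144-3p, miR-7a-2-3p and miR-467b-5p.

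Outside row 2 the array of the higher dose resembled control replicate 1 but not the other controls. Over the 423 members, the deviations of 5 mg/kg replicate 3 from the mean of the 9 arrays had a Pearson correlation of 0.79 with those of control replicate 1, the highest of any pair of arrays, and the pair had the lowest levels of the choroid plexus and Htr2c lists. Both arrays lay in row 1 and column 1 of their slides. With control replicates 2 and 3 the correlations of 5 mg/kg replicate 3 were -0.43 and 0.13. Those of control replicate 1 with the same 2 controls were -0.19 and 0.20. Between 5 mg/kg replicates 1 and 2 the correlation was 0.57. The part of the array position in these values was not tested. The 75th percentile by which arrays were scaled was 0.913-fold at 5 against 1 mg/kg in row 2 and 1.21-fold outside it.

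**Figure D5:**
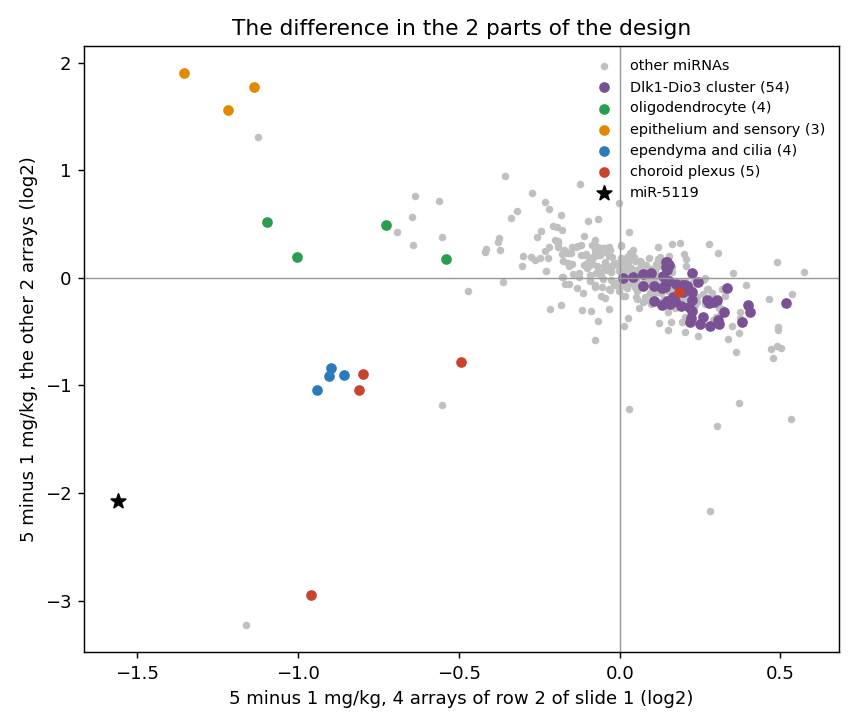
Difference between the doses (5 minus 1 mg/kg, log2) in the 4 arrays of row 2 (horizontal axis) and in the other 2 arrays (vertical axis), for the 423 members. The choroid plexus and ciliated-cell miRNAs and miR-5119 lie at the lower left, below 0 in both except 1 choroid plexus strand, the oligodendrocyte and epithelial miRNAs at the upper left, and the Dlk1-Dio3 miRNAs mostly at the lower right.

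miR-574-5p did not separate the doses. It read -1.68, -1.79 and -1.91 at 1 mg/kg and -1.84, -1.86 and -1.77 at 5 mg/kg, and the ranges overlapped. The difference was -0.03 ± 0.09 (SE), and its 95% interval of -0.22 to 0.17 bounds a difference in either direction. The unadjusted p was 0.747. In row 2 the difference was 0.0016. The control arrays, at -1.60, -1.72 and -1.51, were at the upper end of these values.

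The study's text cites earlier work that linked some miRNAs to the protease BACE1 and others to synaptic and cognitive impairment. miR-574-5p, which the study itself tied to BACE1, is in neither list. The BACE1-linked list, taken from work cited in the study's text and chosen with earlier results of these data known, had 15 members. Of these, 14 lay above 0, 2 were higher at an unadjusted p under 0.05 (miR-9-5p and miR-186-3p) and none was lower. Over all members 67.8% lay above 0, 1.42% were called higher and 2.36% lower. Its median was 0.05, beside 0.04 over all members. The list for synaptic and cognitive impairment had 17 members, also taken from the study's text, 1 higher and 7 lower at an unadjusted p under 0.05. Those 7 are the strands of miR-34b, miR-34c, miR-204 and miR-211 described above. miR-132-3p, induced by neuronal activity, read 3.28, 3.02 and 3.71 against 3.40, 3.20 and 3.83, and none of the 3 members of miR-132 and miR-212 had an unadjusted p under 0.05 (median 0.14).

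Among neuronal miRNAs, miR-9-5p was the one at an unadjusted p under 0.05 in its list of miR-124, miR-9 and miR-128, with all 5 members above 0 and a median of 0.11. The synaptic list of miR-134, miR-135, miR-137, miR-138 and miR-218 had 10 of 11 members above 0 with a median of 0.10, 0.26 in row 2 and -0.22 outside it. No member of the lists that follow had an unadjusted p under 0.05 over the 6 arrays. Median differences were 0.01 for the 14 members of let-7, 0.04 for the 16 UG-repeat members, 0.03 for the 10 of miR-30, 0.01 for the 5 of miR-181, -0.04 for the 9 of miR-17-92 and relatives and -0.14 for the 7 of the miR-15 and miR-103 families. Immune cell miRNAs had 7 members and a median of 0.05, and vascular wall miRNAs 4 members and a median of -0.05. miR-21a-5p, a miRNA of inflammation and glia, read 1.29, 1.52 and 1.60 against 0.92, 1.09 and 1.67 (unadjusted p = 0.268, limma), lower at 5 mg/kg in row 2 and higher outside it.

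Detection calls differed most for miR-34b-3p, described above, and for miR-3092-3p, which was detected on all 3 arrays of the 5 mg/kg group and on 1 of the 1 mg/kg group. It read -5.05, -6.03 and -5.04 at 1 mg/kg and -4.96, -4.96 and -5.00 at 5 mg/kg. The difference of 0.40 ± 0.24 (SE; unadjusted p = 0.137, limma) came mostly from 1 mg/kg replicate 2, and in the controls it was detected on 2 arrays.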

How the data were processed

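Agilent mouse miRNA arrays (version 19.0) of hippocampal RNA, 3 per group, were analysed. The paper calls the control and 5 mg/kg samples individual mice. For the 1 mg/kg samples this is not given in the sources used here, and p-values measure the spread between samples. Per the labels and the paper, the authors scanned them and extracted them with Agilent Feature Extraction 10.7. The deposited intensity values are, for each spot, mean signal, background and background-subtracted (processed) signal, and for each miRNA a total signal and a detection call, with no normalization between arrays. The authors also deposited a table of log2 values. GeneSpring is named as software, and its normalization is not given in the sources used here. The headers name the mm9 build, while probe positions are those of GRCm38, so coordinates are RefSeq's for GRCm38.p6.

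Processed signals without outlier spots were averaged over the spots of a probe and summed over the probes of a miRNA. Scaling used the array's 75th percentile among the 395 miRNAs with a detection call on every array. The lowest signal of a detected miRNA then served as a floor for that array, before the log2 step. A model with the 3 groups was fitted over 9 arrays with limma 3.58.1 in R 4.3.3, which pools the spread as the paper's test after its analysis of variance does, with Benjamini-Hochberg adjustment over the 423 members. The fit was also run on simulated data with independent noise for each miRNA. These held no array, slide or row structure, so they cannot test the fit against such structure. Exact permutation tests of 3 against 3 arrays cannot go below p = 0.1. The number of arrays limits precision, and no 2 arrays held identical values.

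Labels give each sample's group and replicate number. Deviations of same-numbered 1 and 5 mg/kg arrays from their group means correlated over the members (r = 0.36, 0.15 and 0.39 for numbers 1 to 3), so the numbers were taken to pair these arrays. For 1 mg/kg replicate 2 the correlation was higher with 5 mg/kg replicate 1 (r = 0.34). Between controls and same-numbered arrays of either dose the correlations ran from -0.65 to 0.74. The pairing is thus an assumption, taken from the data and not from the labels, and the data do not establish it. The row-2 difference was tested with slide and row as a block.

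Members and lists were chosen with earlier results of these data known. The miRNAs named are those at an adjusted p under 0.05, the 10 lowest p higher and lower without overlap, miR-574-5p, the 5 largest differences in each direction in row 2, those detected on 3 arrays of one dose and at most 1 of the other, and the 3 brightest of each list, where they are described. Others named, such as miR-5110 and miR-92a-3p, were chosen after their values were seen. Alternatives changed the background correction, the summary over probes, the scaling, the filter, the source table, the test, the block and the arrays left out.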

Additional observations from a re-analysis of the deposited data

How the results depend on the processing

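Leaving out the array that is alone on the second slide raised the number of miRNAs at an unadjusted p under 0.05. The count was 16 in the comparison as reported and 8 to 35 when each array was left out in turn. It was 9 with normexp, 35 with the slide as a block, 43 with slide and row as a block and 56 in the 4 arrays of row 2 alone. The slide as a block is the same fit as leaving out the array on the second slide. The other alternatives gave 13 to 21. The count at an adjusted p under 0.05 was 2 with the total signal per miRNA, 0 in the deposited log2 table (13 at an unadjusted p in limma) and 0 with the replicate number as a block over the 6 PM2.5 arrays, chosen after seeing the data (16 at an unadjusted p in limma). It was 1 under every other alternative run. With the total signal per miRNA the lowest adjusted p was 7.2e-06, against 0.00236 for miR-5119 (limma). That lowest value belonged to another miRNA, and both were lower at 5 mg/kg. With the replicate block over the 9 arrays the difference of miR-5119 kept its adjusted p under 0.05; the block values that changed a call are given beside the results, together with miR-144-3p (unadjusted p = 0.0457 in limma over the 6 arrays), and no other call of a named miRNA changed.

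miR-5119 kept its direction in all 27 alternatives. Its difference was -1.86 to -1.55 when each array was left out in turn. Its adjusted p missed the threshold in the deposited table (-2.19) and with the replicate block over the 6 PM2.5 arrays (-1.73). miR-574-5p had no call under any alternative, and its sign turned in row 2 and with slide and row as a block (0.0016 in both) and without 1 mg/kg replicate 1 (range -0.088 to 0.029 over the arrays left out). The sign of miR-1298-5p turned to 0.068 and that of miR-144-3p to -1.04 with the total signal per miRNA. miR-7a-2-3p, at -0.08, turned to 0.20 in the deposited table, to 0.53 with slide and row as a block and in row 2 alone, and to 0.41 with the slide as a block (-0.35 to 0.41 over the arrays left out). miR-467b-5p, at 0.12, turned to -0.056 without 1 mg/kg replicate 3 and to -0.060 without 5 mg/kg replicate 1 (-0.060 to 0.36 over the arrays left out). For the 24 other named miRNAs with a test, 479 of 643 values kept direction and side of the threshold, 127 lost an unadjusted p under 0.05 and 27 gained it. The cause was not tested.

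The count of 43 with the slide row as a block was 6 to 72 when each array was left out, 23 with the total signal per miRNA, 67 with normexp and 839 of 1247 without a filter, where undetected miRNAs sit at the floor of each array and move with it. Dim miRNAs such as miR-186-3p had signals close to the lowest detected signal of their array, which limits their differences.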

Other observations

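miR-5110, the fourth of the larger differences outside the cell type lists, was not called. It read -2.51, -3.48 and -2.45 at 1 mg/kg and -3.40, -3.64 and -3.69 at 5 mg/kg, a difference of -0.76 (unadjusted p = 0.0619, limma). The control arrays read -3.49, -2.24 and -2.59, and so spanned both dose groups.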
